A study of Mus musculus with 12 samples.

Results

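Kidneys of Il18-/- mice aged 12 weeks were compared with kidneys of Il18+/+ mice of the same age, on the 6 arrays of the series' 12 that the labels give to that age. The Il18-/- group and the Il18+/+ group held 3 arrays each, and the other 6 arrays hold the same genotypes at 6 weeks. Each single-colour Agilent array measured total RNA of a whole kidney from an untreated animal, as a biological replicate, and the study asked how expression in a kidney without interleukin-18 (IL-18) differs as mice age. The methods describe male Il18-/- mice made on a C57Bl/6 background and male littermates as Il18+/+ controls, whereas the labels call the strain BALB/c, and the files do not settle which holds. The deletion is carried by every cell of the animal, and the controls carry neither a deletion nor a treatment. Mice were killed at a single hour of the day according to the methods.

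IL-18 is a cytokine that is held in cells as an inactive precursor and cut to its active form by caspase-1 in inflammasomes. Outside the cell it binds the receptor pair Il18r1 and Il18rap, signals through Myd88 and the Irak kinases to NF-kB, and together with IL-12 makes T and NK cells release interferon-gamma, while Il18bp binds and neutralises it. In the kidney it is made by tubular epithelium and by resident immune cells, and most of the RNA of a whole kidney comes from tubular epithelium that burns fatty acids and follows a daily rhythm.

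Each array held 59305 gene spots. A spot is called detected here where the scanner software marked it as well above its background, and the detected share was 52.21% to 55.46% in Il18+/+ and 55.26% to 57.04% in Il18-/- kidneys. No spot was saturated. Levels are given as scaled intensity, on which 1000 is the 75th percentile over detected gene spots on the same array, and they compare arrays for a given probe, not probes with each other. A probe was tested where all 3 arrays of at least 1 genotype detected it, which held for 28952 of 55681 probes and 14844 named genes. Replicate arrays correlated at r = 0.990 to 0.993 among Il18+/+ and at 0.995 among Il18-/- kidneys (Pearson, across probes), and the number of arrays limits the precision. Il18+/+ replicate 1 lay on slide 1 and the other 5 arrays on slide 2, so every result below was also computed on slide 2 alone, the shared slide. The Y-linked Ddx3y, Eif2s3y and Uty were detected on all 6 arrays and both Xist probes on none. In whole-kidney RNA, fewer cells of a type and less RNA per cell cannot be told apart.

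Il18 itself was the first check of the labels. Its probe (mm9 chr9:50389761-50389820) read 203, 181 and 148 on the Il18+/+ arrays and 45.0, 48.8 and 31.0 on the Il18-/- arrays. The genotypes did not overlap, and the mean fell from 177 ± 27.7 to 41.6 ± 9.37 (mean ± SD, n = 3), a log2 fold change of -2.10 (SE 0.18, adjusted p = 0.00136). The probe was still detected on the 3 Il18-/- arrays, and whether it lies inside the deleted part is not given in the sources used here.

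No other gene of the IL-18 pathway passed the test, and the percentage of all probes that did was 0.0518%. Of 33 genes listed for ligand, processing and receptor, 27 were tested. Their median log2 fold change was 0.08, as it was over all named genes tested. The receptor subunit Il18r1 read 18.3, 14.3 and 9.21 in Il18+/+ and 20.9, 24.5 and 11.9 in Il18-/- kidneys, with overlapping groups and a log2 difference of 0.45 (SE 0.32). The decoy Il18bp read 141, 102 and 106 against 105, 142 and 112, a difference of 0.04. Casp1, which cuts the precursor, differed by -0.08, and the inflammasome genes Nlrp3, Nlrc4, Pycard and Gsdmd by -0.17, 0.31, 0.09 and -0.03. Below the receptor, Myd88 differed by 0.18, Irak1 by 0.14, Irak2 and Irak4 by 0.08 each, Traf6 by -0.19, Nfkb1 by 0.38 and the NF-kB inhibitor Nfkbia by -0.33. On the brightest probes only Irak1 and Irak2 of these did not overlap, with Il18-/- arrays all above, as in 13% of all named genes. Further Irak1 probes differed by 0.41 and 0.23 and a second Irak2 probe by 0.38, all without overlap. A second Nfkb1 probe differed by -0.06 and a second Traf6 probe by 0.14, both with overlapping groups. Il1b, Il33 and the IL-33 receptor Il1rl1, the nearest relatives of IL-18 and its receptor, differed by -0.16, -0.21 and 0.09. Without Il18+/+ replicate 3, whose array median over all named genes was -0.15 against 0.02 on both other Il18+/+ arrays, the median of the list was -0.04.

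Across the whole array 15 probes passed, 7 higher and 8 lower in Il18-/- kidneys. A looser rule, a difference of over 2-fold together with an unadjusted p under 0.05, held for 149 probes or 0.515%, of which 80 were higher and 69 lower. All 149 had the same sign on the shared slide and 138 were over 2-fold there, but 56 went undetected on at least 1 of the 6 arrays. All 15 probes that passed had non-overlapping genotypes and the same sign with an unadjusted p under 0.05 on the shared slide. That slide holds 5 of the 6 arrays that gave these probes, so its values are not a separate check of them. With slide as a block in the fit of all arrays, 22 probes passed and 6 of the 15 were among them, those of Apoc3, Il18, ENSMUST00000132584, Fxyd6, Arntl and Atm. The other 9, among them Bco2, Tmprss4, C130081A10Rik, Fam55b, Fam55d, 1110032A03Rik and both Kif9 probes, then had adjusted p of 0.0537 to 0.0856. With only the 5 arrays of the shared slide, 3 probes passed over all probes (0.0104%), those of Apoc3, Tmem25 and Sc5d, and the smallest p an exact permutation test allows for 3 arrays against 2 is 0.1. The 15 probes depended on single arrays: without Il18+/+ replicate 2 or 3, 6 and 5 probes passed, and without Il18-/- replicate 1, 2 or 3, 7, 4 and 6. Of all probes with an unadjusted p under 0.05, 82% were higher in Il18-/- kidneys, but this share was 54.9% after quantile normalization and 42.9% with the percentile taken over all gene spots. Small shifts over many genes therefore have no settled direction here, and the 15 probes kept their sign under both scalings.

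Of the 15 probes, 13 lay on chromosome 9, 11 of them within 10 Mb of Il18 among 301 tested there. The remaining 2 on that chromosome are both Kif9, a kinesin gene whose probes ended at 110426880 and 110426333 (mm9). Only Arntl on chromosome 7 and a transcript on chromosome 11 lay elsewhere. Since Il18 is on chromosome 9, a segment that was carried along with the targeted allele and the loss of IL-18 itself cannot be told apart for its neighbours.

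Apoc3, which codes for an apolipoprotein that slows the clearance of triglyceride-rich particles, read 716, 694 and 580 in Il18+/+ and 4090, 3890 and 3740 in Il18-/- kidneys. The groups lay far apart, and Apoc3 rose 5.91-fold from 663 ± 73.3 to 3910 ± 175 (log2 2.56, SE 0.11, adjusted p = 2.78e-06). A second Apoc3 probe differed by 0.26 with overlapping groups, so the 2 probes disagree. Fxyd6, a regulator of the sodium pump, read 837, 781 and 521 against 2510, 2650 and 2510 and rose by 1.87 on the log2 scale (SE 0.18, adjusted p = 0.00237). Tmprss4, a membrane serine protease, rose by 1.42, from 153 ± 14.5 to 410 ± 17.9. C130081A10Rik rose by 1.01 from 20.2 ± 1.78.

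Among the decreases, Bco2, the mitochondrial enzyme that cleaves carotenoids, read 463, 567 and 361 in Il18+/+ and 150, 132 and 151 in Il18-/- kidneys. It fell by 1.67 on the log2 scale (SE 0.21, adjusted p = 0.0259), and at 6 weeks the difference was -1.75. Fam55d (Nxpe4) read 30.2, 27.5 and 22.2 and was undetected on the Il18-/- arrays, where it read 4.15, 2.56 and 1.56. It was at least 3.66-fold lower, the bound setting the Il18+/+ mean against the higher of each Il18-/- array's lowest detected signal and the probe's own signal. By the same bound Fam55b (Nxpe2) was at least 2.25-fold lower and 1110032A03Rik at least 1.71-fold lower, although another 1110032A03Rik probe differed by 0.22. Atm, the kinase that senses DNA breaks, fell from 125 ± 5.92 to 65.3 ± 1.22 (log2 -0.93, adjusted p = 0.0259), while a second Atm probe differed by -0.21. Kif9 fell by 1.33 and 1.30 on 2 probes and differed by -0.17 and 0.06 on 2 others. At 6 weeks the 2 Kif9 probes that fell had differed by -0.10 and 0.01.

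The transcript on chromosome 11, ENSMUST00000132584, is given no gene name in the files. It read 112, 118 and 94.5 in Il18+/+ and 438, 394 and 384 in Il18-/- kidneys and rose by 1.91 (SE 0.13, adjusted p = 0.000198). At 6 weeks the same probe read 295, 249 and 246 against 278, 341 and 269, and the genotype effects at the 2 ages differed by 1.74 (adjusted p = 0.0116). Between the ages its Il18+/+ level differed by -1.28 on the log2 scale.

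**Figure D1:**
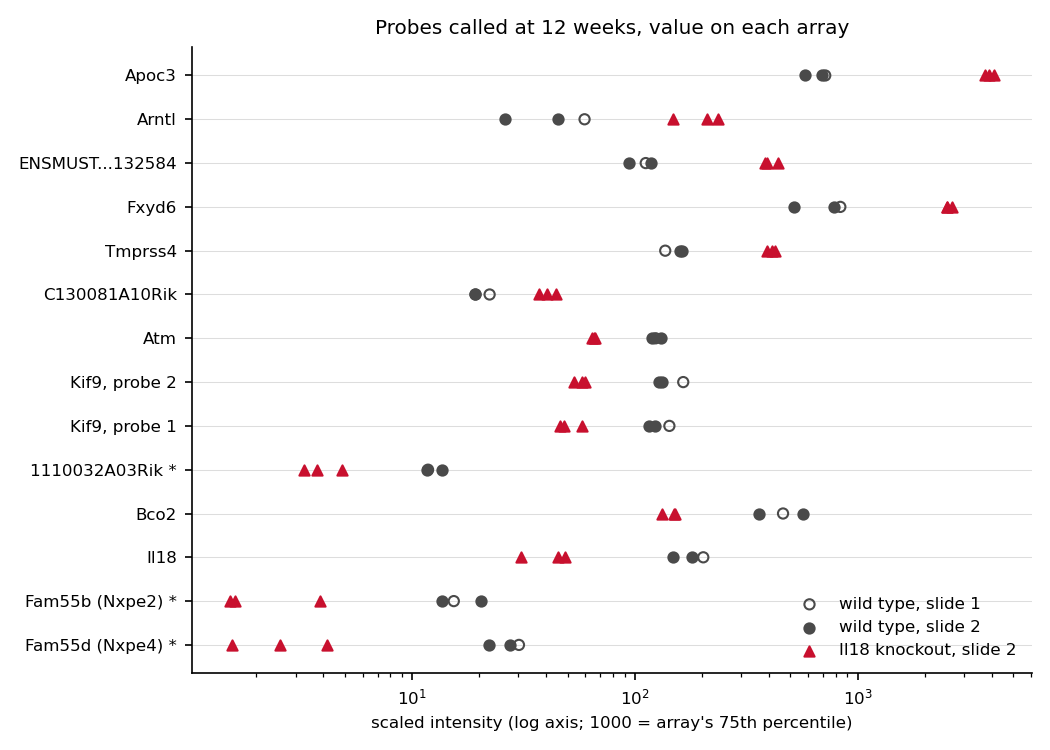
Scaled intensity on a log axis of 14 of the 15 probes that passed the test at 12 weeks, 1 row per probe and 1 point per array (circles Il18+/+, open for the array on slide 1; triangles Il18-/-; an asterisk marks probes undetected on all Il18-/- arrays). Apoc3 reads 580 to 716 in Il18+/+ and 3740 to 4090 in Il18-/- kidneys, and in no row do the genotypes overlap.

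Large differences that did not pass came both from the neighbourhood of Il18 and from other chromosomes. Tmem25, on chromosome 9, read 4290, 4640 and 4670 in Il18+/+ and 635, 862 and 667 in Il18-/- kidneys (log2 -2.66, SE 0.53, adjusted p = 0.239), and it passed on the shared slide (adjusted p = 0.0179). Sc5d, an enzyme late in cholesterol synthesis and also on chromosome 9, read 1330, 1570 and 1580 against 381, 404 and 395 (-1.92, adjusted p = 0.236, and 0.0172 on the shared slide). For both, the replicates at 12 weeks were tight, and the standard error drew on all 4 groups of the series. Scn2b, a sodium channel subunit on the same chromosome, read 16.2, 20.4 and 26.8 against 67.0, 111 and 85.2 (2.06, adjusted p = 0.102).

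Elsewhere in the genome, Gm7120 on chromosome 13 was higher on both its probes, by 2.08 and 1.44 (adjusted p = 0.152 and 0.299). Insc, an adaptor that orients cell division, read 27.9, 20.7 and 28.5 against 66.0, 53.1 and 67.5 (1.28, adjusted p = 0.0853). Creb3l3, a transcription factor of fasting and triglyceride metabolism, read 44.5, 54.1 and 57.3 against 21.6, 18.7 and 17.1 (-1.44, adjusted p = 0.574). The 4921517L17Rik probe on chromosome 2 read 40.0, 43.5 and 36.6 against 98.8, 111 and 121 (1.46, adjusted p = 0.289). These 4 genes were picked among probes whose genotypes do not overlap, so the lack of overlap is part of the choice and not a result. Outside the 10 Mb around Il18, 67 named genes passed the looser 2-fold rule.

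Of all the gene lists, the evening arm of the circadian clock held the most genes at an unadjusted p under 0.05. In this clock Clock and Arntl (BMAL1) form the activator that binds E-boxes and drives the Per and Cry repressors, the nuclear receptors Nr1d1 and Nr1d2 and the output factors Dbp, Tef and Hlf, which act on D-boxes together with their competitor Nfil3. Genes that peak with Arntl are called the morning arm here, and those that peak with Dbp and the Per genes the evening arm. Of 6 genes listed for the morning arm and 14 for the evening arm, 4 and 13 were tested, and Cry1, Npas2 and Bhlhe41 were too dim.

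Arntl read 59.5, 45.0 and 26.2 in Il18+/+ and 236, 148 and 212 in Il18-/- kidneys. The lowest Il18-/- array, at 148, lay above the highest Il18+/+ array, at 59.5, and Arntl rose 4.73-fold, from 43.6 ± 16.7 to 199 ± 45.1 (log2 2.24, SE 0.30, adjusted p = 0.0283). It was 2.51 on the shared slide, and its adjusted p rose to between 0.0601 and 0.129 when Il18+/+ replicate 2 or 3 or any Il18-/- array was left out. Nfil3, which represses D-box genes, read 76.0 to 133 against 156 to 263 (0.94, unadjusted p = 0.0159). Clock, the partner of Arntl, read 268, 278 and 215 against 308, 326 and 334 (0.36, unadjusted p = 0.00966).

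Of the morning arm, 3 of the 4 genes tested were higher at an unadjusted p under 0.05, where 6.39% of all named genes were, and the same 3 had Il18-/- arrays all above Il18+/+ arrays, where 13% were. Their median log2 difference was 0.65, and it was 0.65 on the shared slide.

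The evening arm was lower as a group. Gm129 (Ciart), a repressor of the Clock and Arntl pair, read 102, 127 and 111 in Il18+/+ and 20.1, 38.7 and 41.7 in Il18-/- kidneys (log2 -1.83, SE 0.32, adjusted p = 0.134). Per2 read 133, 199 and 217 against 37.8, 111 and 79.7 (-1.37), Per1 read 1340, 2230 and 2330 against 796, 917 and 791 (-1.20), and Per3 read 46.3, 51.3 and 56.8 against 22.6, 36.1 and 29.6 (-0.83). In all 3 Per genes, which code for the clock's repressors, the highest Il18-/- array lay below the lowest Il18+/+ array. The output factor Dbp read 17500, 21200 and 19700 against 7340, 11900 and 8880 on its brighter probe (-1.08), and its other probe gave -1.14. Cry2, the partner of the Per proteins, differed by -0.65, the cell-cycle kinase Wee1 by -0.53, the deubiquitinase Usp2 by -0.47, the Arntl repressor Nr1d2 by -0.37, and the output factors Tef and Hlf by -0.35 and -0.29. Bhlhe40, another repressor, overlapped between the genotypes at -0.42 (unadjusted p = 0.0659). Nr1d1 stood against the rest of the arm, with 359, 202 and 237 against 317, 303 and 293 (0.24, overlapping).

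No evening gene passed the test over all probes. At an unadjusted p under 0.05, 11 of the 13 were lower, where 1.43% of all named genes were, and 11 of the 13 had Il18-/- arrays all below Il18+/+ arrays, where 2.71% did. These shares hold for the scaling used. Over all probes, 423 were lower at that p here, 1389 with the percentile over all gene spots and 1145 after quantile normalization. The arm's median was -0.53, against 0.08 over all named genes, and -0.59 on the shared slide, where 8 genes were lower at an unadjusted p under 0.05. Il18-/- replicate 1 had the lowest array median of the arm, -0.63 against -0.09 and -0.24 on the other Il18-/- arrays. Without it 7 of the 13 kept an unadjusted p under 0.05, while leaving out an array cannot undo a lack of overlap. The arm's median stayed within -0.62 and -0.40, the range over all 6 arrays left out in turn. These counts were chosen with the clock genes' direction already known from the same arrays. Glucocorticoid and handling response genes, a list that shares Per1 with the clock, had a median of -0.24, and Per1 was the only one of 14 with an unadjusted p under 0.05.

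**Figure D2:**
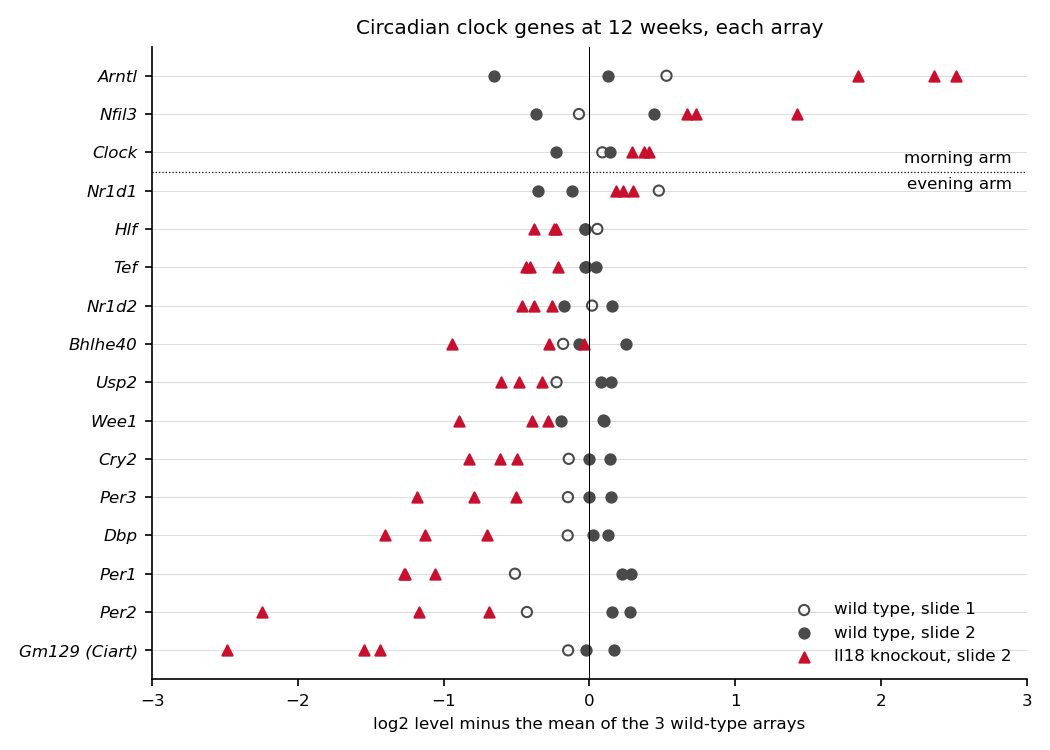
Log2 level of 16 of the 17 tested clock genes on each 12-week array, minus the mean of the 3 Il18+/+ arrays (circles Il18+/+, open for slide 1; triangles Il18-/-; dotted line between the morning arm above and the evening arm below). Arntl lies about 2.24 to the right in Il18-/- kidneys and Gm129 about 1.83 to the left, and 11 of 13 evening genes have every triangle left of every circle.

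Both elements were searched for in RefSeq promoters (GRCm38.p6, 250 bases before the start) of the 10 evening and 3 morning genes found there. The E-box CACGTG, which is its own reverse complement, was found in 3 of the 10 evening genes and in 0 of the 3 morning genes, and 6.02% of 32851 promoters held it. The D-box, searched as TTATGTAA and TTACGTAA on both strands, was found in 1 evening gene, Per3, and in 0.931% of all promoters. A gene was counted where any of its starts held the motif, while the percentages count each start, so these shares are not in like units. The stretches around the matches are shown because they belong to 4 of the genes that were lower, with the motif in capitals.
Ciart (Gm129), chr3:95882247-95882364, minus strand: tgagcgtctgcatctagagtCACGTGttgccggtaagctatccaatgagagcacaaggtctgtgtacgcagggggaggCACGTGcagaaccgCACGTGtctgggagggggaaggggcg
Per1, chr11:69098763-69098808, plus strand: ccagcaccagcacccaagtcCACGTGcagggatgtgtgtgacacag
Per3, chr4:151044796-151044890, minus strand: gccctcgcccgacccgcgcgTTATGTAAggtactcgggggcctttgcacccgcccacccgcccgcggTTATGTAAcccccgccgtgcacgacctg
Tef, first start, chr15:81802526-81802571, plus strand: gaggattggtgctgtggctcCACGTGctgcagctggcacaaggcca
Tef, second start, chr15:81811256-81811301, plus strand: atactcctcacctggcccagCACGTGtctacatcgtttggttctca
Ciart, whose level differed most in the evening arm, held 3 E-boxes, 116, 58 and 44 bases before its start. Per1 held 1, Tef 1 before each of 2 starts, and Per3 held 2 D-boxes at 205 and 158 bases. A match describes these letters, not a bound site, and the other genes may hold such elements outside this window.

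At 6 weeks most of these genes differed with the opposite sign. All 13 evening genes were higher in Il18-/- than in Il18+/+ kidneys at that age, with a median of 0.57, and all 4 morning genes were lower, with a median of -0.50. Arntl read 652, 467 and 388 in Il18+/+ kidneys at 6 weeks and 59.5, 45.0 and 26.2 at 12 weeks, a change of -3.57 on the log2 scale, while in Il18-/- kidneys it read 170, 199 and 143 and then 236, 148 and 212, a change of 0.20. Gm129 read 6.63, 7.38 and 7.06 and then 102, 127 and 111 in Il18+/+ kidneys (4.01), against 34.6, 40.7 and 80.4 and then 20.1, 38.7 and 41.7 in Il18-/- kidneys (-0.60). Dbp changed by 2.85 and -0.08, and Per3 by 1.82 and -0.59, in the same order. For each of these 4 genes the Il18-/- levels of both ages lay between the Il18+/+ levels of 6 weeks and those of 12 weeks or overlapped with the latter, and the age change was the larger one in Il18+/+ kidneys.

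The difference between the genotype effects of the 2 ages, taken as 12 minus 6 weeks, passed the test for 12 probes over the whole array, 0.0393%. Among them were Gm129 with -4.61 (SE 0.45), Arntl with 3.78 (SE 0.42) and both Dbp probes with -3.01 and -2.94 (adjusted p = 0.0116 for each), and Per3 with -2.41 (adjusted p = 0.0164). The genotype effect had opposite signs at the 2 ages in 12 of the 13 evening and 3 of the 4 morning genes. At 6 weeks no slide held both genotypes, the 3 Il18+/+ arrays of that age all lying on slide 1. Il18+/+ replicate 1 of 12 weeks lay on that slide too, and its Arntl of 59.5 and Gm129 of 102 were next to those of the other 12-week Il18+/+ arrays. With slide as a block the difference was 3.25 for Arntl and -4.71 for Gm129, at unadjusted p of 0.000137 and 1.82e-05, and none of the 12 probes passed after adjustment. The sources give no record of the hour for single animals.

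**Figure D3:**
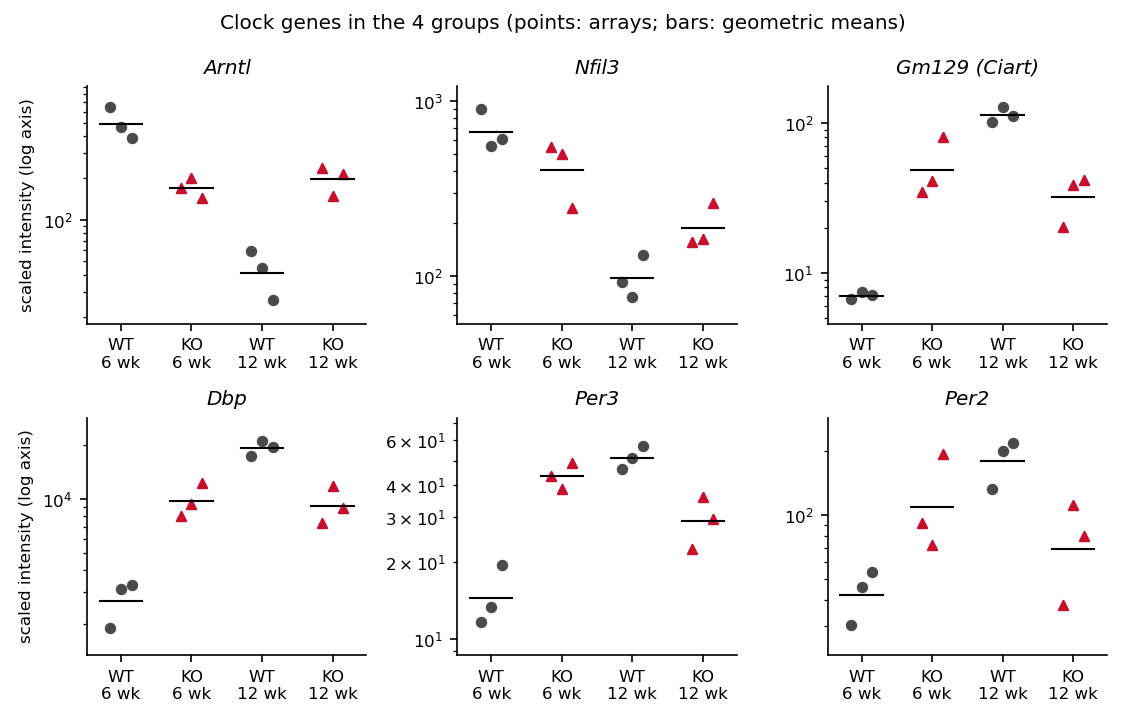
Scaled intensity on log axes of 6 clock genes in the 4 groups of the series (circles Il18+/+, triangles Il18-/-, 3 arrays each; bars are geometric means). Il18+/+ kidneys move from the top to the bottom for Arntl (652 to 26.2) and from the bottom to the top for Gm129 (6.63 to 127) between 6 and 12 weeks, and Il18-/- kidneys stay between 143 and 236 for Arntl.

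Genes of fatty acid use were measured next, since proximal tubules live on fatty acids and the nuclear receptors PPAR-alpha, -delta and -gamma control their burning. All 29 genes listed were tested, and their median was -0.10 on the log2 scale, against 0.08 over all named genes. At an unadjusted p under 0.05, 6 were lower and 1 higher, beside 1.43% and 6.39% of all named genes, and 9 had Il18-/- arrays all below Il18+/+ arrays, beside 2.71%, but none passed the test over all probes. These shares, with the 13% of named genes whose Il18-/- arrays were all above, are also the background for the lists that follow. They depend on the scaling, as given above for the evening arm. Without Il18+/+ replicate 3 the median was -0.21.

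Cyp4a14, a fatty acid omega-hydroxylase and one of the study's own genes at this age, read 723, 1200 and 711 in Il18+/+ and 259, 573 and 346 in Il18-/- kidneys (-1.20, SE 0.50, unadjusted p = 0.0342). Angptl4, a secreted inhibitor of lipoprotein lipase, read 7040, 13800 and 8660 against 4390, 5370 and 4060 (-1.04, SE 0.32, unadjusted p = 0.0074). Both are PPAR targets that rise with fasting, and in each the groups did not overlap.

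Of the regulators, Ppara and Ppargc1a differed by less. Ppara read 4860, 4840 and 5220 against 3870, 4640 and 4070 on its brightest probe (-0.25, unadjusted p = 0.0466). Further Ppara probes differed by -0.36 and -0.53 (unadjusted p = 0.0329 and 0.00405), and none of its probes overlapped between the genotypes. The coactivator Ppargc1a read 2490, 2730 and 2120 against 2120, 2060 and 1750 on its brighter probe (-0.31, unadjusted p = 0.0318). A second Ppargc1a probe differed by 0.12 with overlapping groups, so the probes of this gene disagree. Ppard was higher, with 554, 543 and 409 against 1220, 996 and 788 (0.98, SE 0.21, adjusted p = 0.278), and its genotype effect differed from that at 6 weeks, where it was -1.30, by 2.28 (adjusted p = 0.0324). Pparg differed by 0.05.

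Most enzymes of the beta-oxidation spiral differed little. The peroxisomal Ehhadh differed by 0.01, and the mitochondrial Hadha, Hadhb, Acadm, Acadl and Acadvl by 0.00, 0.04, -0.03, -0.09 and -0.10. Acaa1b was lower without overlap, at 5750, 6500 and 7070 against 5260, 5090 and 5280 (-0.30, SE 0.14, unadjusted p = 0.0559). The carnitine shuttle genes Cpt1a, Cpt2 and Slc25a20 differed by -0.18, -0.22 and 0.14. Standard errors of these genes were 0.11 to 0.19, so a difference of that size was not resolved. Cyp4a12a and Cyp4a12b, which are close copies and may share signal, were higher by 0.74 and 0.78, with Il18+/+ replicate 3 far below the other arrays (2740 against 5300 and 7200 for Cyp4a12a).

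**Figure D4:**
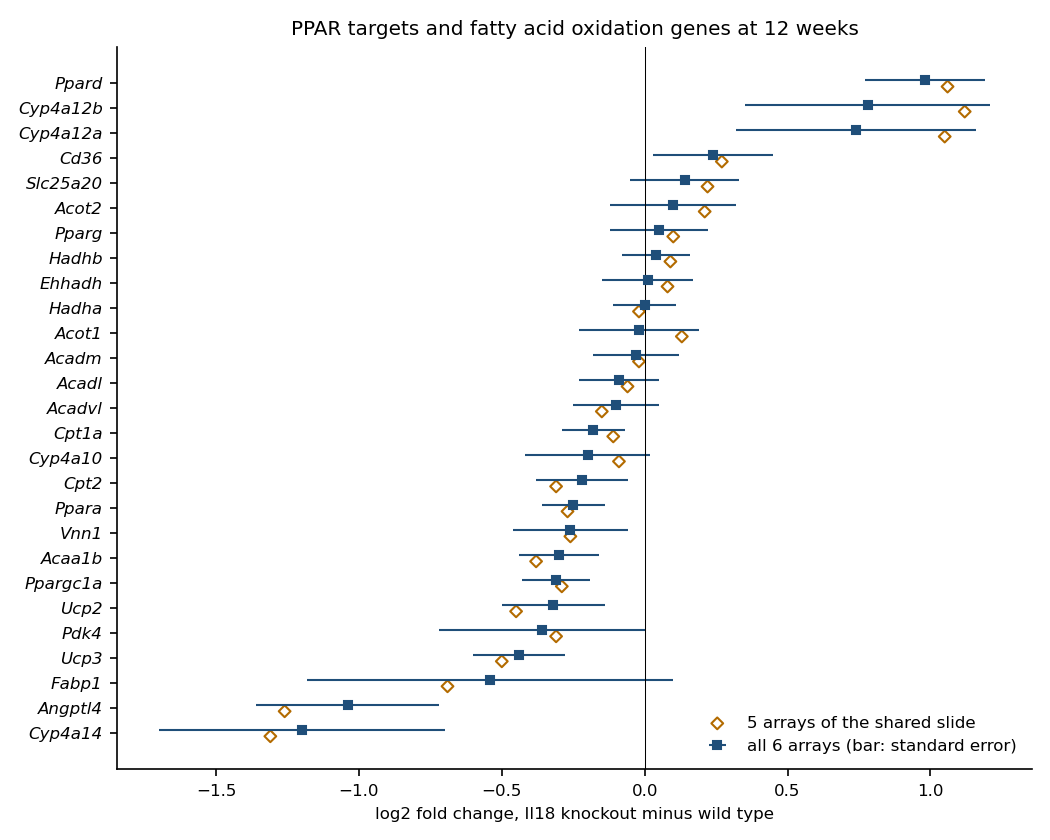
Log2 fold change between Il18-/- and Il18+/+ kidneys at 12 weeks of 27 of the 29 PPAR target and fatty acid oxidation genes, with the standard error from all arrays (squares) and the value on the shared slide (diamonds). Cyp4a14 (-1.20) and Angptl4 (-1.04) lie to the left and Ppard (0.98) to the right, and most beta-oxidation enzymes lie near 0.

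The other lipid and carbohydrate lists had medians near that of the array, with single genes apart from them. Those for fatty acid and triglyceride synthesis (18 genes), gluconeogenesis and glucose transport (21 genes) and oxidative phosphorylation (22 genes) had medians of 0.08, 0.01 and 0.05, and 1 gene among them, the insulin signalling kinase Akt2, was higher at an unadjusted p under 0.05 (0.28, 3860, 3850 and 3630 against 3060, 3110 and 3190). Cholesterol synthesis and uptake had a median of 0.12 over 18 genes, with Cyp51 and Mvd, both enzymes of the sterol path, at 0.33 and 0.28. This median was 0.03 with the percentile over all gene spots. Of 11 apolipoprotein and lipoprotein assembly genes only Apoc3 passed, and its neighbour Apoa4 read 33.3, 16.1 and 24.5 against 51.4, 57.7 and 52.2 (1.19, adjusted p = 0.154).

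Genes of vitamin A metabolism held 1 gene that passed, Bco2. Of the 18 tested, 3 more were higher at an unadjusted p under 0.05, where 6.39% of all named genes were. Rdh10, which oxidises retinol to retinal, read 672, 508 and 443 against 945, 922 and 939 (0.81, SE 0.17, adjusted p = 0.239). Bcmo1 (Bco1), the enzyme that splits beta-carotene into retinal, read 24.7, 31.3 and 25.6 against 37.4, 45.3 and 40.9 (0.60, adjusted p = 0.424), and Dhrs3, which reduces retinal back to retinol, read 13700, 13500 and 12900 against 16000, 16200 and 15300 (0.25, adjusted p = 0.603). In these 3 genes every Il18-/- array was above every Il18+/+ array, as in 13% of all named genes, while Bco2, which also cleaves carotenoids, lay below. Lrat, which stores retinol as esters, overlapped at 0.37, and the receptors Rara, Rarb, Rarg and Rxra differed by 0.04, -0.15, -0.03 and 0.04.

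Targets of interferon-gamma, the cytokine that IL-18 induces, did not pass. The 25 tested genes had a median of -0.19, between -0.29 and -0.06 when single arrays were left out and -0.06 on the shared slide, and 0 of them had an unadjusted p under 0.05. The chemokine Cxcl10, another of the study's genes at 12 weeks, read 573, 320 and 442 in Il18+/+ and 311, 412 and 312 in Il18-/- kidneys (-0.34, SE 0.26, adjusted p = 0.759), with overlapping groups and -0.14 on the shared slide. A second Cxcl10 probe read 4.27, 3.35 and 2.02 against 1.62, 1.49 and 1.45 and was undetected on every array. By RT-qPCR of the same mice the paper reports Cxcl10 as lower in Il18-/- kidneys. Antigen presentation genes (MHC class I and II, 11 genes) had a median of -0.16, and B2m, their invariant chain, differed by -0.13. On the interferon-gamma list the array medians were 0.38, 0.00 and -0.11 in Il18+/+ and -0.17, 0.11 and -0.19 in Il18-/- kidneys, so the highest was the array on slide 1. Of 17 type I interferon genes the median was -0.11, and Isg15 was the one with an unadjusted p under 0.05, at 585, 275 and 420 against 669, 748 and 560 (0.68). Chemokines and cytokines (13 genes) and complement (11 genes) had medians of -0.04 and -0.01.

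Immune cell markers did not separate the genotypes. Macrophage markers (12 tested of 13) had a median of -0.12 and T and NK cell markers (8 of 14) one of 0.03, with 0 genes of either list at an unadjusted p under 0.05. The complement subunit C1qa, a macrophage marker, read 240, 219 and 204 against 181, 238 and 179. Of 6 B and plasma cell genes, Ms4a1, detected on 1 of the 3 Il18+/+ arrays, was higher by 1.19 at an unadjusted p of 0.0205, from a level as low as 2.40 in Il18+/+ replicate 3. Dendritic cell and neutrophil markers had medians of 0.02 and 0.31 over 6 and 5 genes, and the neutrophil list spanned -0.52 to 0.69 among the Il18+/+ arrays alone.

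Markers of nephron cell types lay near the median of the array. Over 20 cell type lists, 0 of 169 marker genes passed, 6 were higher and 1 lower at an unadjusted p under 0.05, both smaller shares than the 6.39% and 1.43% of all named genes, and 16 of the lists had medians between -0.15 and 0.20. Proximal tubule markers, which include the sodium-glucose cotransporter Slc5a2 and the endocytic receptor Lrp2, had a median of 0.01 over 16 genes, and the water channel Aqp1 read 28700, 25400 and 25400 against 28300, 28300 and 27600. The one proximal gene with an unadjusted p under 0.05 was the organic anion transporter Slc22a8, with 441, 361 and 520 against 362, 264 and 355 (-0.43). Thick ascending limb, distal convoluted tubule and principal cell markers had medians of 0.04, 0.07 and 0.07, and intercalated cells -0.08. Cldn10, a tight junction gene of the thick ascending limb, read 5060, 4990 and 3530 against 6020, 5520 and 5640 (0.36), without overlap. Podocyte markers had a median of 0.08 over 11 genes and 0.23 on the shared slide, and their one gene with an unadjusted p under 0.05 was Clic5 (0.26). Endothelium, mesangial and renin cells, smooth muscle and fibroblasts had medians of 0.09, 0.02, 0.10 and -0.05.

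Markers of tissue next to the kidney varied between arrays of a genotype, and some fat genes were apart between the genotypes. Urothelial markers, which line the renal pelvis, had a median of 0.37 over 7 genes, but Il18-/- replicate 2 stood at 1.27 and its group at -0.12 and -0.41, and without that array the median was -0.02. Upk3a read 187, 132 and 154 against 171, 446 and 139. Adipose markers had the highest median of all cell types, 0.59 over 7 genes, and Il18+/+ replicate 3 stood at -1.15 against -0.12 to 0.58 on the other 5 arrays. Cfd (adipsin) read 91.4 to 184 against 248 to 456 (1.26, adjusted p = 0.345). Retn (resistin) read 26.3, 22.3 and 23.4 against 36.7, 44.8 and 48.0 (0.84, adjusted p = 0.366). Neither overlapped, nor did a second Retn probe at 1.30 (adjusted p = 0.239). Cidec, Car3 and Fabp4 differed by 0.59, 0.23 and 0.04, each with overlapping groups. Erythroid markers had the lowest median, -0.21 over 6 genes. The part of fat, pelvis or blood in any difference above was not tested.

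**Figure D5:**
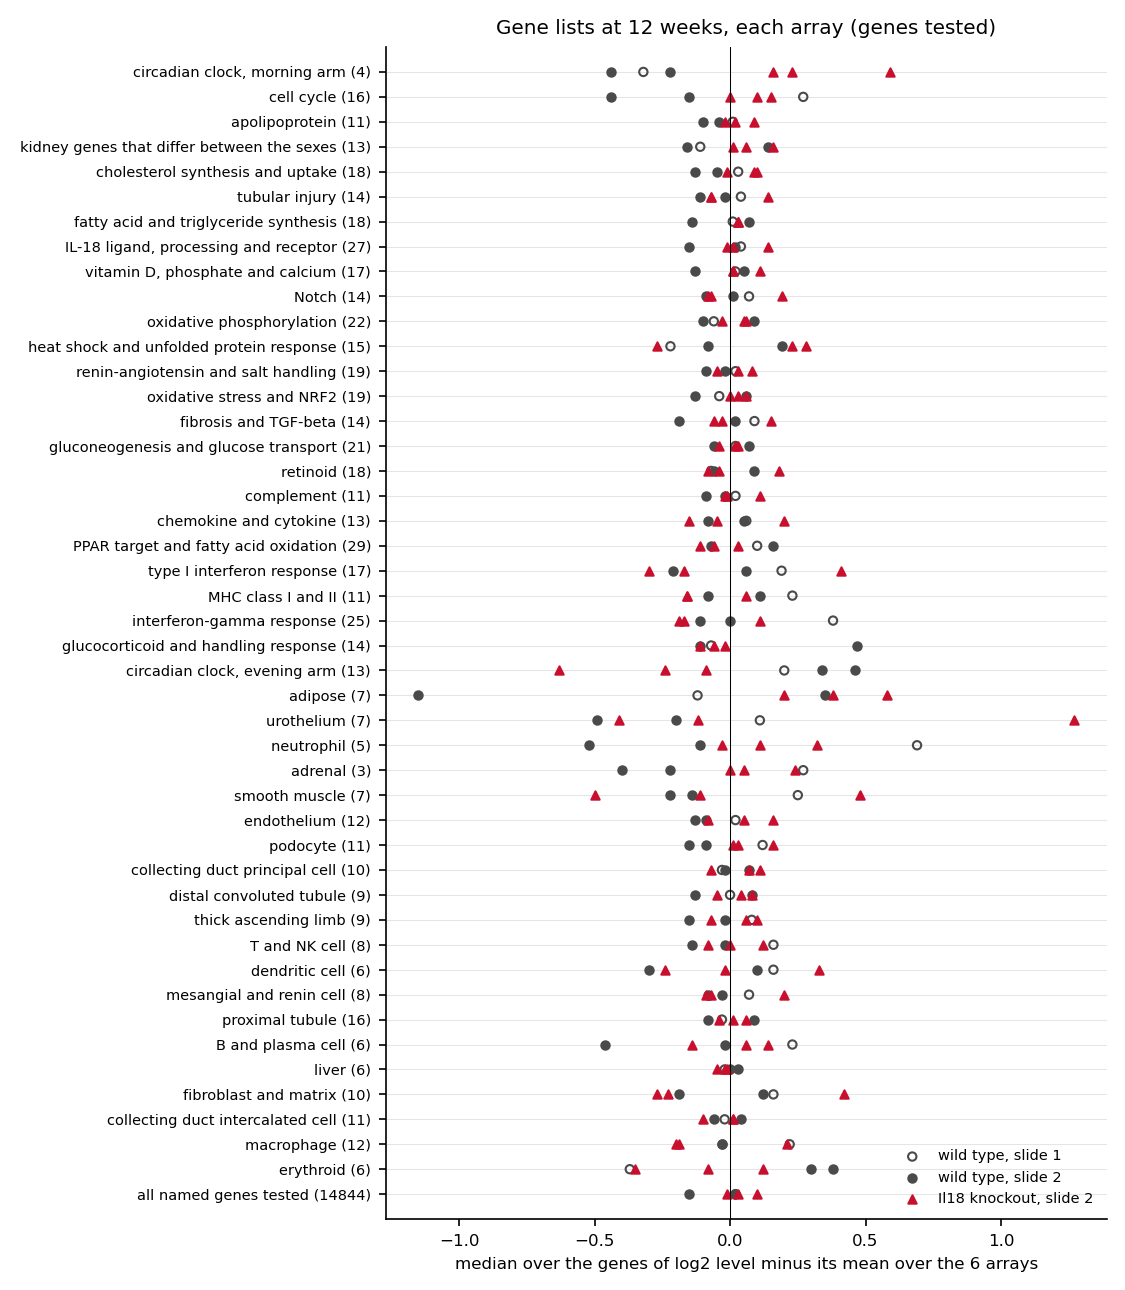
Median log2 level of each gene list on each 12-week array, relative to each gene's mean over the 6 arrays (circles Il18+/+, open for slide 1; triangles Il18-/-; number of genes tested in brackets; pathway lists above, cell type lists below, all named genes in the last line). The genotypes are separate for both clock arms, Il18-/- replicate 2 stands at 1.27 for urothelium and Il18+/+ replicate 3 at -1.15 for adipose markers.

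Injury and repair genes showed single differences. Of 14 tubular injury genes 2 were higher at an unadjusted p under 0.05, where 6.39% of all named genes were, a share that gives about 1 of 14. Cdkn1a (p21), which halts the cell cycle, read 43.4, 53.6 and 39.0 against 68.4, 85.3 and 70.9 (0.73, SE 0.15, adjusted p = 0.239), and Tnfrsf12a, the receptor of TWEAK, read 871, 380 and 743 against 1220, 1270 and 1260 (1.0, SE 0.26, adjusted p = 0.358). The median of this list was 0.11, and both genes were without overlap. In the fibrosis and TGF-beta list, the basement membrane collagens Col4a2 and Col4a1 were higher by 0.51 and 0.55, at unadjusted p of 0.0113 and 0.0270. Cell cycle genes had a median of 0.17, and Il18+/+ arrays alone ranged from -0.44 to 0.27.

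Of 15 heat shock and unfolded protein genes, 5 were higher in Il18-/- kidneys at an unadjusted p under 0.05, where 6.39% of all named genes were, 4 of them chaperones of the endoplasmic reticulum, while the inducible heat shock genes varied within each group. Pdia6, Hspa5, Calr and Hsp90b1, which fold proteins in the endoplasmic reticulum, differed by 0.43, 0.47, 0.40 and 0.37, and the cytosolic Hsp90aa1 by 0.41, and none passed after adjustment. Pdia6 read 12500, 11800 and 9660 against 13500, 15100 and 17000, without overlap. Hspa1a read 151, 1090 and 433 against 144, 525 and 260, so both groups spanned more than 3-fold. The list's median was 0.04, and it was 0.34 without Il18-/- replicate 1.

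Of 14 Notch pathway genes, Notch1 and the Notch target Hes1 were lower and Numb, which restrains Notch, was higher at an unadjusted p under 0.05. Notch1, the last of the study's genes at this age, read 435, 500 and 307 against 192, 212 and 170 on its brighter probe (-1.09, SE 0.48, adjusted p = 0.603). Hes1 read 68.4, 69.5 and 66.2 against 60.4, 54.5 and 52.7 (-0.29), and Numb 85.6, 84.9 and 84.9 against 96.2, 112 and 112 (0.32). Renin-angiotensin and salt handling (19 genes) and vitamin D, phosphate and calcium genes (17 genes) had medians of 0.03 and 0.07. Mas1, a receptor for angiotensin fragments, read 70.7 to 172 against 184 to 230 (0.72, adjusted p = 0.609). Among kidney genes that differ between the sexes (13 genes, median 0.13), the urate transporter Slc22a12 read 4940, 4470 and 4960 against 6230, 5930 and 6320 (0.36, adjusted p = 0.591), and the 8 Gapdh probes, the reference gene of the study, differed by 0.00 to 0.19.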

How the data were processed

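The authors labelled total RNA with Cy3, hybridised it to Agilent 60-mer arrays and read each spot with Feature Extraction 10.7.3.1, per the file headers, on the mm9 build. The deposited scanner files hold spot intensity (gProcessedSignal, background-subtracted and detrended) with the scanner's marks for detected, saturated and uneven spots, and the deposited series matrix holds the same intensity within 0.498%. Labels give RNAlater for storage and the methods liquid nitrogen. Background subtraction leaves dim intensities noisy, and a probe undetected on every array of a group at 12 weeks is given as a bound.

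Control spots and 95 to 159 unevenly read spots per 12-week array were left out. Each intensity was divided by the array's 75th percentile of detected gene spots, those the scanner marked well above background (2366.6 to 2966.2 at 12 weeks), following the study's methods, and spots of a probe were averaged as log2. Group means of all 12 arrays were fitted with limma 3.58.1 (lmFit, eBayes, two-sided) in R 4.3.3 with data.table (version 1.17.8), with the Benjamini-Hochberg adjustment over the 28952 probes tested at 12 weeks, or 30538 at either age. A probe was called, or passed, at an adjusted p under 0.05. For the arrays the methods section names no test, and the study selected genes over 2-fold at a p under 0.05. The procedure was tested on simulated data. A gene is its brightest tested probe, matched by the symbol in the files, of which older ones are given with their RefSeq symbol. Figures and promoter searches used Python 3.11.15 with numpy 2.4.6 and matplotlib 3.10.9.

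Genes named were every called probe, the 10 largest increases and 10 largest decreases over 2-fold detected on all 6 arrays and without overlap, up to 3 members of each list with the smallest p and its brightest member, every measured gene of the IL-18 list and clock arms, the study's genes of this age and Gapdh. Other members are given as values of their list. The members and lists were chosen with earlier results of these data known, so no list was tested as a set. The alternatives changed the percentile, normalization, background correction, floor, source of values, dim-probe filter, arrays in the fit, variance moderation, slide, replicate number and each array in turn. Scan date was the same as slide and was not run. Some named members are not reported here and are left out of the plots, and every count includes them. RT-qPCR, serum and staining data were not analysed here.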

Additional observations from a re-analysis of the deposited data

Results flagged for a closer look

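The genotype effect (log2, Il18-/- minus Il18+/+) differed between the ages (12 minus 6 weeks) by a margin that passed limma's test for 12 probes. For 5 probes of clock genes it was -4.61 for Gm129, 3.78 for Arntl, -3.01 and -2.94 for the 2 Dbp probes and -2.41 for Per3, at adjusted p of 0.0116, and 0.0164 for Per3. For Ppard it was 2.28 (adjusted p = 0.0324), for ENSMUST00000132584 1.74 (adjusted p = 0.0116), and for the vasopressin receptor Avpr1a 1.78 (adjusted p = 0.0423), which read 267, 256 and 211 in Il18+/+ kidneys at 6 weeks, 109, 71.5 and 71.1 at 12 weeks, and 121 to 171 on all Il18-/- arrays. Dim probes made up the rest. A530001N23Rik, AK038006 and Gm221 (Ccdc170) were undetected on the 3 Il18+/+ arrays of 12 weeks, so their fitted differences of 2.80, 2.79 and 2.0 rest on values not above background and are no measured sizes. An unnamed transcript of chromosome 5, detected on 1 of these arrays, had 1.72 (adjusted p = 0.0324). All 3 Il18+/+ arrays of 6 weeks lay on slide 1, no slide held both genotypes at that age, and with slide as a block none of the 12 passed. The part of slide in these differences was not tested further.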

How the results depend on the processing

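No probe among the 15 called at 12 weeks changed sign under any alternative run. Apoc3 stayed called under all 20 alternatives, Il18 and ENSMUST00000132584 under 19 of 20, Fxyd6 under 18 and Arntl under 10, with ranges of 2.46 to 2.62, -2.23 to -1.59, 1.61 to 1.97, 1.66 to 2.0 and 1.69 to 2.51 on the log2 scale. The count called was 15, and it was 26 after normexp, 33 without background correction, 34 with an intensity trend and robust variances, 4 without a filter on dim probes, 22 with slide as a block (6 of the 15), 3 on the shared slide (1 of the 15) and 4 to 17 with single arrays left out. The count over 2-fold was 149, and it was 50 after normexp, 52 without background correction, 618 without a filter, 95 for probes detected on all 6 arrays, 300 with slide as a block, 266 on the shared slide and 140 to 315 with single arrays left out, the highest without Il18+/+ replicate 1. The 12 probes whose effect differed between the ages became 26 after normexp, 24 without background correction, 54 with the trend, 3 with slide as a block, 7 for probes detected on all 12 arrays and 4 to 23 with single arrays left out (4 without Il18+/+ replicate 2 or 3, 23 without replicate 1). The 3 probes called on the shared slide became 1 with the 6-week Il18-/- arrays of that slide as an added group and 0 to 11 with single arrays left out, the highest without Il18+/+ replicate 2. Evening genes lower at an unadjusted p under 0.05 numbered 7 to 11 with single arrays left out, an alternative added after the data were seen, like the leave-one-out on the shared slide and the moderation over the probes tested at 12 weeks alone. Where the cause of a change is not the alternative's own construction (fewer probes or arrays), it was not tested.

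Of the named genes' log2 fold changes under the alternatives, 3839 were labelled unchanged. Among these, called probes kept their sign and stayed called, and the others moved by less than the log2 SD among replicates of a genotype. Another 64 values of genes not called moved by that SD or more, and 31 values gained and 117 lost significance.

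Same-numbered arrays of the 2 genotypes did not deviate together (r = 0.10, 0.01 and -0.08 across probes), so the numbers do not pair the mice. With the replicate block in the fit of the 6 arrays, 6 probes were called, 4 of them among the 15, and 155 were over 2-fold.

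Of the 15 probes 3 were undetected in Il18-/- kidneys, and 3 arrays a group leave differences under about the standard errors given unresolved.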

Other observations

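Several differences over 2-fold rested on single arrays. Hmox1, the haem-degrading enzyme, read 916, 84.5 and 848 in Il18+/+ and 990, 1410 and 1440 in Il18-/- kidneys. Its log2 fold change of 1.65 (unadjusted p = 0.0372) was 0.52 without Il18+/+ replicate 2, the low array. On the same array Bst2 and Isg15, both induced by interferon, and Tnfrsf12a were also lowest of the group, at 300, 275 and 380. Lox, which cross-links collagen, read 7.99, 8.35 and 42.9 in Il18-/- kidneys and was undetected on the Il18+/+ arrays, where it read 5.79, 2.03 and 3.11, which makes it at least 1.72-fold higher. Samd3 read 14, 28.4 and 71.0 against 12.3, 8.73 and 12.1. Ucp1, the uncoupler of brown fat, ranged from 3.89 to 300 among the Il18+/+ arrays alone.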
